A study of Mus musculus with 36 samples.

Results

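The genes described here are the interferon-responsive families that could be read on the arrays by name: Ifit, Ifitm, the other numbered Ifi genes, Oas, Gbp, the immunity-related GTPases (Iigp and Irgm), Slfn, Isg, the interferon regulatory factors (Irf) with their binding proteins (Irf2bp), Stat genes, Usp18 and the long noncoding RNA AW112010. They were chosen by symbol alone. In all, 94 of 45101 probe sets matched, and they belonged to 67 of the 20701 genes on the array. Each gene was represented by its probe set with the highest mean over the 36 arrays. For 50 of the 67 genes there was only 1 probe set. The study followed the heart of OF1 (Oncins France 1) mice, an outbred stock, on every day from E10.5 to E19.5 and in young and old adults, without any treatment or genetic change. Each of the 12 stages had 3 arrays. At E10.5 and E11.5 all 3 held hearts of both sexes, and from E12.5 onward 1 was female, 1 male and 1 mixed. Young adults were 10 weeks old. Old adults were 14 months old in the series' description and 10 months old in the methods, and no value below depends on the age. The tissue was whole heart, so a lower signal from fewer cells of a type and a lower signal from less RNA per cell cannot be told apart.

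Interferons are secreted signals of antiviral defence. Their receptors act through Janus kinases on transcription factors, Stat2 with Irf9 among them, which switch on a large set of genes through short promoter elements, while Irf1 and Irf8 act on related elements. The products restrict infection at different steps: Ifitm proteins hinder entry of viruses into the cell, Ifit proteins bind foreign RNA, Oas enzymes make the second messenger that activates RNase L, and guanylate-binding proteins (Gbp) and immunity-related GTPases attack the membranes around intracellular microbes. Many of these genes are also transcribed at a low level without infection, and macrophages and endothelial cells of the heart are among the cells known to do so.

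Promoter sequences are shown for some of the members on which the results below turn, because these genes rose at different times. They were picked by hand, and every promoter shown holds a match to the element marked below. Of the 52 members with a promoter window, 34 had no such match, Ifi35, Irf8 and Ifit2 among them. The 160 bases before the gene's start are given on the gene's own strand (RefSeq, GRCm38.p6), with capitals marking every match to GAAANNGAAA, the core of the interferon-stimulated response element, or to the same letters on the other strand, TTTCNNTTTC. Gbp2, Ifit1, Ifit3 and Irgm2 were low through all or most of gestation, Gbp7 and Slfn5 climbed through gestation, and Slfn9, the next gene to Slfn5, did not have a called slope over these days (-0.02 log2 units per day, adjusted p = 0.257).
Gbp2, chr3:142620503-142620662, plus strand: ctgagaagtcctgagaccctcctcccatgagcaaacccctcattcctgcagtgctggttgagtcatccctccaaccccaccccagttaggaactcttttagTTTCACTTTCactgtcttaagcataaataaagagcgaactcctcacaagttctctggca
Ifit1, chr19:34640729-34640888, plus strand: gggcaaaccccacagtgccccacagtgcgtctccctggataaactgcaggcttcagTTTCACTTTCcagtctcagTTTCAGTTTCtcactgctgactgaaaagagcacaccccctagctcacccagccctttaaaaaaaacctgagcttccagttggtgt
Ifit3, chr19:34583369-34583528, plus strand: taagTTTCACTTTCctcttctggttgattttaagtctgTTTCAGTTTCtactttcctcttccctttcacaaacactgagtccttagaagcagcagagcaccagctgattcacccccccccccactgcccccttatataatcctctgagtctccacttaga
Irgm2, chr11:58214817-58214976, plus strand: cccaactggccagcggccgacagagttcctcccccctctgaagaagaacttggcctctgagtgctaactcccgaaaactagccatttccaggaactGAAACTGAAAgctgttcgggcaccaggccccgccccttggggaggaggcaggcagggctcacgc
Gbp7, chr3:142530176-142530335, plus strand: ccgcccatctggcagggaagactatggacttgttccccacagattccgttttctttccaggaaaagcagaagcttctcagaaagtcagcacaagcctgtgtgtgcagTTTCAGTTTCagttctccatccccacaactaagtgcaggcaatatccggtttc
Slfn5, chr11:82951942-82952101, plus strand: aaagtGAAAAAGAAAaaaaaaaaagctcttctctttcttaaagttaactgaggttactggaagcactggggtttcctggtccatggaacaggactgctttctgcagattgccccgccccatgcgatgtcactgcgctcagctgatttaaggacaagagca
Slfn9, chr11:82991831-82991990, minus strand: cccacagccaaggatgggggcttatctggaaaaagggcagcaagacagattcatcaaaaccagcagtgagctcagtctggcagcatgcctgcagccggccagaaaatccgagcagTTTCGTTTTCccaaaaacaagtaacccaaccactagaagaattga

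The match began 59 bases before the start of Gbp2, 53 before that of Gbp7 and 64 before that of Irgm2. Ifit1 had a pair of matches, 104 and 85 bases upstream, and so had Ifit3, 156 and 122 bases upstream. Promoter windows of 250 bases before to 50 after the start were found for 52 of the 67 members. GAAANNGAAA on either strand was present for 18 of these genes, in 30.2% of their windows, against 3.44% of all 32851 windows in the table. The shorter TTCNNNGAA, the core of the gamma-activated sequence, which reads the same on both strands, was found for 12 of the genes, in 12 of their 63 windows, against 8.3% of all windows; in Gbp7 it lay 106 and 87 bases and in Irgm2 75 bases upstream. The remaining 34 members with a window had no match to GAAANNGAAA in it, and matches were not compared with the time courses.

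Tissue identity was checked first. Cardiomyocyte markers averaged between 11.2 and 11.9 on the log2 scale at every stage, whereas the liver markers averaged between 3.19 and 4.03, although the extraction text in the labels names liver. Leukocyte markers averaged 3.37 in E10.5 hearts, 4.47 by E19.5, 6.03 in young adults and 6.23 in old ones, and endothelial markers 6.13, 6.96, 7.73 and 8.37. The hybridization controls, RNAs of fixed amount added to each array, also differed with stage: the arrays ranged from 9.68 to 10.35 for E10.5, 10.97 to 11.39 for E19.5, 12.03 to 12.43 for young adults and 11.16 to 11.56 for old adults. Their part in the differences below was not tested except by entering the control level as a covariate.

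Most of the families were low in the early embryo and high in the adult. Of the 67 members, 52 had their highest stage mean in an adult heart, 16 in young and 36 in old, which is 77.6% of members compared with 38.2% of all probe sets. In 24 members the mean exceeded 5 on the log2 scale, the limit for expression in the study's rule, at 1 or more embryonic stages, in 20 it did so only in adults, and in 23 at no stage. The low group included Gbp2b, Oas1c, Oas3, Irf4, Irf5 and 5 of the 9 Slfn genes. All values are log2 RMA signals, and differences are read within a probe set, not between genes.

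**Figure D1:**
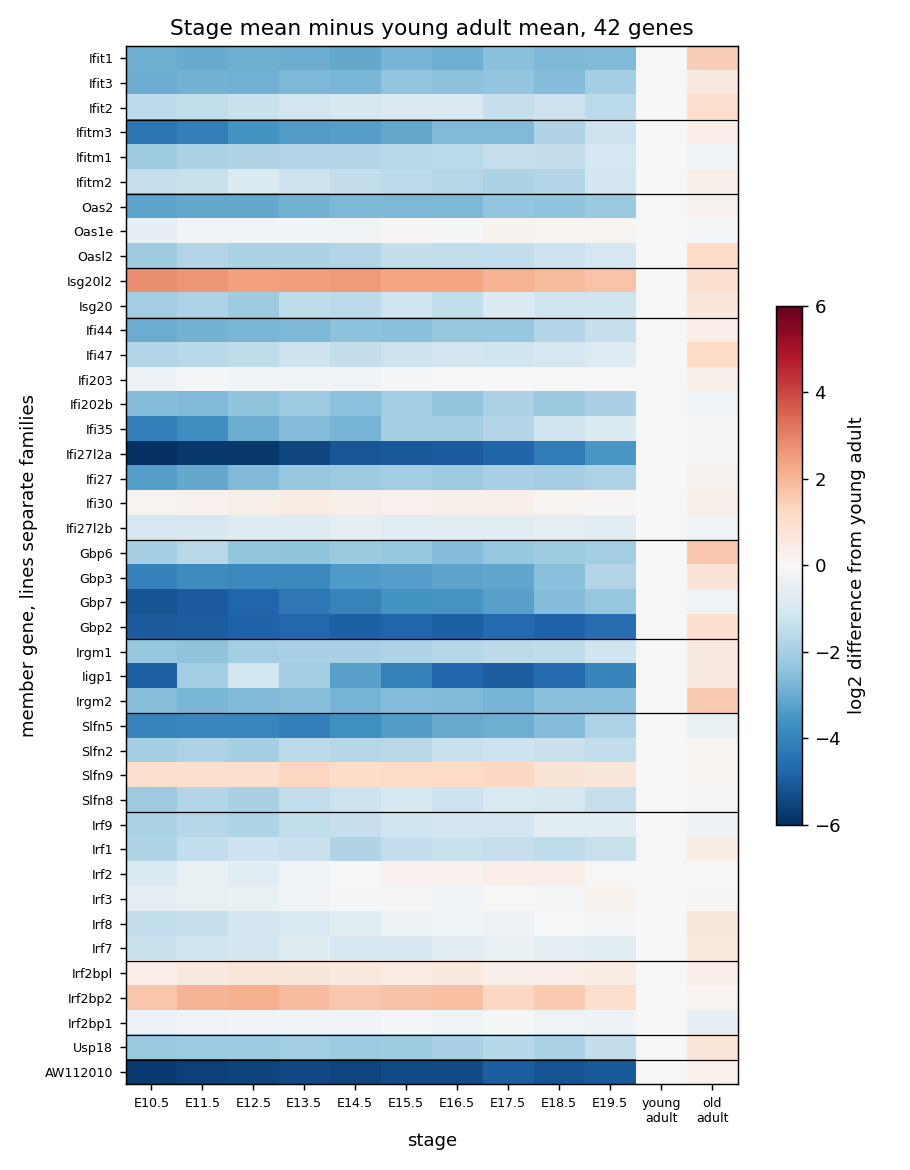
Stage mean minus the young adult mean (colour, log2 scale) for 42 genes whose mean exceeded 5 at 1 stage or more (rows, grouped by family; Stat genes are not drawn) over 12 stages (columns), 3 arrays per stage. Blue rows, lower than in the young adult, fill most families before birth, and Isg20l2, Irf2bp2 and Slfn9 are the main rows in red.

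E10.5 was compared with young adult to give the full span of heart development. Under the study's strict rule (limma, adjusted p below 1e-05, absolute log2 difference above 2, and a mean above 5 at 1 stage or more), 23 members were lower at E10.5 and 1 was higher. The 23 were 34.3% of members, whereas 2.1% of all probe sets were lower and 4.43% higher. At an adjusted p below 0.05, again with a mean above 5 at 1 stage or more, as in every count of calls given here, 39 members were lower, compared with 11.6% of probe sets, and 4 were higher, compared with 22.3%. Counted as 1 probe set per gene, chosen as for the members, 2.64% of genes were lower under the strict rule and 14.8% at 0.05. Without any filter, the median difference was -1.04 over the 67 members and -0.19 over all probe sets. With the hybridization control level as a covariate, the strict rule called 16 members, 15 lower and 1 higher. The 15 included Ifit2 (-2.59) and Ifitm2 (-2.19), which had not passed it without the covariate. All 24 members of the main count were called at 0.05 in the same direction. Of the 43 called at 0.05, 34 kept their call and direction with the covariate and 9 did not. No share of all probe sets is given for the counts with the covariate. E19.5 was set against the same 3 young adult arrays, so the pair of comparisons share their reference and are given side by side. At E19.5 the strict rule called 10 members lower, 14.9% of members compared with 0.634% of probe sets, and none higher. At 0.05, 32 were lower (7.56% of probe sets) and 4 higher (13.4%), and the median difference over the 67 was -0.64 compared with -0.04. With the hybridization covariate 30 of these calls at 0.05 kept their direction and 6 were lost, again without a share of all probe sets.

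The guanylate-binding proteins held 3 of the 10 largest deficits at E10.5. Gbp2 read 2.31, 2.20 and 2.31 at E10.5, 2.55, 2.64 and 2.84 on the E19.5 arrays, 7.19, 6.90 and 7.69 in young adults and 8.33, 7.55 and 8.93 in old adults. None of these embryonic and adult arrays overlapped, and the log2 difference of E10.5 from young adult was -4.99 (SE 0.21, adjusted p = 1.18e-18), 31.7-fold. At E19.5 the difference was still -4.58 (SE 0.21, adjusted p = 9.17e-17). Gbp7, in the same gene cluster, was already on its way by then, with 3.79, 3.90 and 4.15 at E10.5, 7.11, 6.87 and 6.62 at E19.5 and 8.89, 8.90 and 9.59 in young adults. Gbp7 therefore differed from young adult by -5.18 (SE 0.26, adjusted p = 3.87e-17) at E10.5 but by -2.26 (SE 0.26, adjusted p = 2.6e-08) at E19.5. With the hybridization covariate the difference of Gbp7 at E19.5 was -1.88 and no longer passed the strict rule. Gbp3, which lies between them, followed Gbp7 more than Gbp2, at -4.08 and -1.74. Gbp6 had no called difference between E10.5 and E19.5: its means were 4.53 at E10.5 and 4.43 at E19.5, compared with 6.53 in young adults. Gbp2b and Gbp8 remained below 5 throughout.

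Of the 4 immunity-related GTPases, Iigp1, Irgm1 and Irgm2 were lower in the embryo and Iigp1b stayed below 5. Irgm2, a regulator of the other GTPases, read 2.51, 2.61 and 2.47 at E10.5, 2.64, 2.58 and 2.51 at E19.5, and 4.84, 5.09 and 5.37 in young adults. These embryonic arrays lay between 2.47 and 2.64, below every adult array, with differences of -2.57 (SE 0.24, adjusted p = 1.09e-10) and -2.53 (SE 0.24, adjusted p = 7.91e-10). Irgm1 rose partway before birth, from a mean of 3.76 to 4.81, and reached 6.02 in young adults, so that it passed the strict rule at E10.5 (-2.26) and not at E19.5 (-1.20). Iigp1, which acts on the vacuole of intracellular parasites, had a time course of its own and is described further on.

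Several genes that act on viral RNA were lower in the embryo than in the young adult heart. Ifit1, which binds RNA with a foreign cap, read 2.52, 2.56 and 2.76 at E10.5, 2.94, 3.12 and 2.72 at E19.5, and 5.92, 5.28 and 5.48 in young adults. The difference was -2.94 (SE 0.17, adjusted p = 1.86e-15) at E10.5 and -2.64 (SE 0.17, adjusted p = 1.65e-13) at E19.5. Ifit3, its partner, stood at means of 2.96, 3.91 and 5.93, and Ifit2 at 4.81, 4.74 and 6.37. Oas2, one of the enzymes upstream of RNase L, had means of 3.60, 4.56 and 6.78 and differed by -3.18 and -2.22. With the hybridization covariate its difference at E19.5 was -1.86 and no longer passed the strict rule. Oasl2, an Oas-like protein, stood at 2.05, 3.15 and 4.17, and met the limit of 5 in old hearts only (5.37). Of the 9 Oas members, 6 stayed below 5 at every stage, and Oas1e, which was above 5, differed from young adult by only -0.52 at E10.5; it was -1.04 after median centring and -0.79 after quantile scaling, but 0.46 and not called with the hybridization covariate. Isg20, an RNA exonuclease, stood at 3.67, 4.56 and 5.76, and its difference at E10.5 went from -2.09 to -0.99 with the covariate. That of Ifit2 went the other way, from -1.55 to -2.59.

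The membrane proteins of the Ifitm and Ifi27 groups included the member with the largest difference at E10.5. Ifitm3, the best known barrier to virus entry, read 5.82, 5.87 and 5.34 at E10.5, 9.17, 9.08 and 8.24 at E19.5 and 10.18, 9.87 and 10.15 in young adults. Most of the rise was complete before birth: the difference from young adult was -4.39 (SE 0.21, adjusted p = 1.4e-17) at E10.5 and -1.23 (SE 0.21, adjusted p = 2.19e-05) at E19.5. Ifitm2 and Ifitm1, its neighbours, differed by -1.38 and -2.11 at E10.5 (-2.19 and -1.32 with the hybridization covariate), and Ifitm5, Ifitm6, Ifitm7 and Ifitm10 stayed below 5. Ifi27l2a, a small interferon-induced membrane protein, had the largest difference of all members at E10.5: its arrays read 3.06, 2.85 and 2.81, compared with 5.51, 5.55 and 5.12 at E19.5 and 9.48, 8.37 and 8.82 in young adults. The young adult signal was 63.3-fold that at E10.5 (-5.99, SE 0.22, adjusted p = 4.16e-20) and 11.3-fold that at E19.5 (-3.50, SE 0.22, adjusted p = 1.06e-13). Ifi27 and Ifi27l2b, which lie beside it, differed by -3.29 and -1.04 at E10.5, the latter -0.23 and not called with the covariate. Where a stage lay below 5, such a fold is a ratio of signals near the background of the array.

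Other Ifi genes share the prefix but not a common function. Ifi35, a partner of Nmi, read 4.90, 5.41 and 5.48 at E10.5, 8.82, 8.46 and 8.33 at E19.5, and 9.27, 9.43 and 9.35 in young adults. Its difference from young adult was -4.09 at E10.5 (SE 0.27, adjusted p = 5.92e-14), and at E19.5 the remaining difference was -0.82 (SE 0.27, adjusted p = 0.0218), or -0.72 and not called with the hybridization covariate. Both other probe sets of Ifi35 gave smaller differences at E10.5, -2.06 and -1.69. Ifi44 and Ifi202b also passed the strict rule at E10.5 (-2.97 and -2.59), and Ifi47, an immunity-related GTPase by sequence, did not (-1.77). Ifi44 met the limit of 5 in old hearts only (5.35), with means of 2.00 at E10.5 and 4.96 in young adults. Ifi30, a thiol reductase of antigen processing, was the only member above 5 at some stage that was called in neither direction at 0.05 at E10.5 (0.16, SE 0.13, adjusted p = 0.288), with stage means between 6.30 and 6.75.

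AW112010 was low in every embryonic sample and high in every adult one. This long noncoding RNA read 2.86, 3.15 and 3.19 at E10.5, 3.64, 3.58 and 4.06 at E19.5, 8.40, 8.82 and 9.23 in young adults and 8.93, 8.96 and 9.28 in old adults. All 30 embryonic arrays of AW112010 lay below 5, and no adult array was under 8.40. It differed from young adult by -5.75 at E10.5 (SE 0.21, adjusted p = 4.15e-20) and by -5.06 at E19.5 (SE 0.21, adjusted p = 7.89e-18), the largest difference of any member at E19.5, 33.3-fold. Usp18, the protease that removes ISG15 and damps the interferon receptor, had means of 2.37 in E10.5, 3.19 in E19.5 and 4.61 in young adult hearts, all under 5, and of 5.35 in old adults. Its difference at E10.5 was -2.24, and -1.42 with the hybridization covariate.

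The Schlafen genes were divided, although they lie next to each other with no other coding gene between Slfn5, Slfn9, Slfn8, Slfn2, Slfn1, Slfn4 and Slfn3. Slfn5 read 3.33, 3.38 and 3.98 at E10.5, 6.04, 5.96 and 5.08 at E19.5 and 7.20, 7.75 and 7.76 in young adults, a difference of -4.01 at E10.5 (SE 0.24, adjusted p = 4.69e-15). Slfn9 read 6.07, 5.90 and 6.49 at E10.5 and 4.83, 5.34 and 5.11 in young adults, and was therefore higher at E10.5, by 1.06 (SE 0.24, adjusted p = 0.000327). Under median centring the difference of Slfn9 was 0.53 and it was no longer called, and its other probe set gave 0.35 and was not called. With the hybridization covariate it was 1.73. Slfn2 and Slfn8 were lower, as Slfn5 was, at -2.06 and -2.18, but with the covariate at -1.003 and -1.41, which no longer passed the strict rule, while Slfn1, Slfn3, Slfn4, Slfn10-ps and Slfnl1 stayed below 5. Schlafen proteins are known as brakes on growth of immune cells and on virus translation.

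The Irf members and Stat2, transcription factors of the pathway, were mostly lower at E10.5. None of them passed the strict rule in the comparisons with young adult, but all 6 Irf members above 5 at some stage were lower at E10.5 at 0.05: Irf9 by 1.91 (-1.91), Irf1 by 1.82 (-1.82), Irf8 by 1.46 (-1.46), Irf7 by 1.35 (-1.35), Irf2 by 0.91 (-0.91) and Irf3 by 0.54 (-0.54) on the log2 scale. With the hybridization control level as a covariate Irf1 (-0.33), Irf7 (-0.27), Irf3 (-0.47) and Stat2 (-0.03, from -0.96) were not called at E10.5. Irf1, an activator of interferon-responsive genes, read 5.95, 6.26 and 6.40 at E10.5, 6.63, 6.71 and 6.75 at E19.5 and 7.68, 8.07 and 8.32 in young adults. Stat2 was near the limit throughout, between 3.95 and 5.07. The Irf2 binding proteins act as co-repressors. Irf2bp2 was higher at E10.5 on the probe set read here, with means of 8.59 and 6.92 and a difference of 1.67 (SE 0.22, adjusted p = 1.34e-07), but its 4 probe sets pointed both ways, at 1.67, 0.59, -0.42 and -1.21, all called at 0.05, so no direction is given for the gene. With the covariate the first of these was 1.07 and not called. Irf2bpl was higher by 0.38, but its difference was -0.15 after median centring and -0.08 after quantile scaling, neither of them called, while with the hybridization covariate it was 0.57 and called. Irf2bp1 was at -0.36 (SE 0.16, adjusted p = 0.0495), at -0.65 after quantile scaling and -0.89 after centring, and at -0.30 with the covariate, where it was not called (adjusted p = 0.57).

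Isg20l2 was the only member higher at E10.5 under the strict rule. It encodes a nucleolar exonuclease of ribosomal RNA maturation and carries the Isg prefix by similarity to Isg20. Its arrays read 7.73, 7.71 and 7.91 at E10.5, 6.86, 6.49 and 6.69 at E19.5, and 5.44, 5.08 and 4.45 in young adults. These did not overlap, and signal at E10.5 was 6.92-fold the young adult level (2.79, SE 0.19, adjusted p = 1.43e-13) and 2.15-fold that of E19.5 (1.10, SE 0.19, adjusted p = 2.81e-05).

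The days between gave the same picture for the families as a whole. From E11.5 to E18.5, in day order, the strict rule called 17, 19, 17, 18, 17, 17, 14 and 13 members lower than in young adults. The corresponding shares of all probe sets were 1.84, 1.75, 1.66, 1.52, 1.58, 1.25, 1.2 and 1.01%. A comparison of E10.5 with E19.5 then asked how much moved before birth. Here 6 members were lower at E10.5 under the strict rule, compared with 0.698% of probe sets: Ifi35 (-3.27), Ifitm3 (-3.15), Gbp7 (-2.92), Ifi27l2a (-2.49), Gbp3 (-2.34) and Slfn5 (-2.13). At 0.05, 27 were lower (10.7% of probe sets) and 2 higher (17.9%). With the hybridization control level as a covariate 17 were lower and 1 was higher, and no share of all probe sets is given for that model.

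A slope over the 10 embryonic stages used all 30 embryonic arrays. The limit of 5 counted adult stages too, and 20 of the members that met it did so only in adults. At 0.05, among members above 5 at 1 stage or more, the slope was positive for 31 members, compared with 13.2% of probe sets. It was negative for 3, compared with 20.7%. Without that limit it was positive for 47 and negative for 4. With the hybridization control level in the model the slope was positive for 18 and negative for 3. No share of all probe sets is given without the limit or with the covariate, so neither count is set against the whole array. Gbp7 and Ifitm3 had a higher mean than the day before at each of the 9 daily steps, with slopes of 0.32 (SE 0.01, adjusted p = 2.76e-18) and 0.31 (SE 0.02, adjusted p = 6.82e-15) log2 units per day. Ifi35 had the steepest slope, 0.34 (SE 0.02, adjusted p = 1.19e-13), followed in this group by Ifi27l2a at 0.24, Slfn5 and Gbp3 at 0.22 and Irf8, a factor of the macrophage lineage, at 0.17. Irf8 had in fact reached its young adult level by E19.5, with arrays of 5.53, 5.25 and 5.37 compared with 5.27, 5.40 and 5.72. The slopes of AW112010, Ifit1 and Gbp2 were small, at 0.08, 0.05 and 0.03, although each was called at 0.05, and with the covariate none of these 3 was. Gbp6 and Irgm2 had no called slope. Several marker lists moved over the same days. Of leukocyte markers, 9 of 13 were lower at E10.5 than at E19.5 and none higher, and of endothelial markers 6 of 10 were lower and 1 higher. The shares of all probe sets were 10.7% lower and 17.9% higher. Of 4 fibroblast markers 3 were lower at E10.5, 2 of them by the strict rule, and 1 was higher, and their mean went from 7.28 to 10.11, with 9.18 in young adults. Their part in the slopes was not tested.

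**Figure D2:**
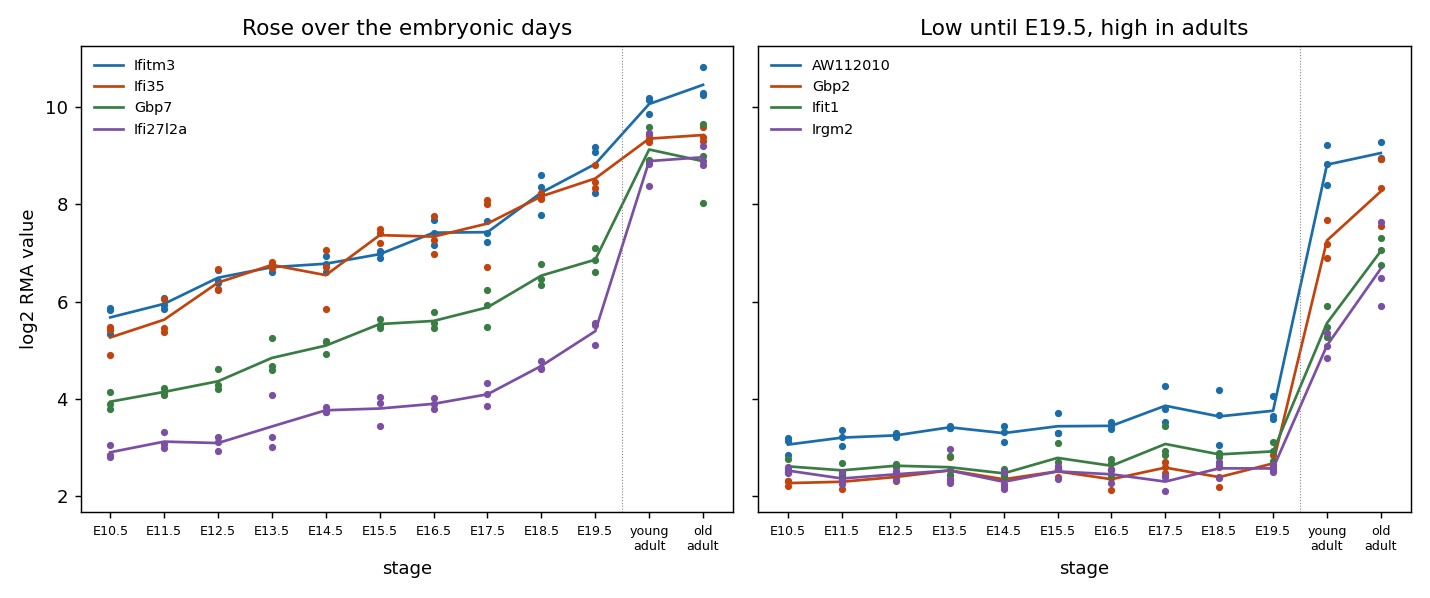
Log2 RMA signal (vertical axis) on each array (points) and stage mean (lines) over 12 stages (horizontal axis) for 4 members that climbed through gestation (left) and 4 that stayed low until E19.5 (right); the dotted line marks birth. Gbp7 rose from 3.95 to 6.86 before birth, whereas Gbp2 went from 2.27 to 2.68 and then to 7.26 in young adults.

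Iigp1 rose at E11.5 and was near its first level again before birth. Its arrays read 4.35, 4.38 and 3.98 on the first day, 6.46, 7.70 and 6.92 a day later, and 8.17, 7.83 and 8.09 by E12.5. From there it declined through means of 7.05, 5.87, 5.07 and 4.38 to 4.17 at E17.5, stood at 5.16 at E19.5, and was at 9.11 in young and 9.67 in old adults. No array of E11.5, E12.5 or E13.5 overlapped any array of E10.5 or of E16.5 to E18.5. Among the members, this was the only daily step called at 0.05: between E10.5 and E11.5 the signal rose by 2.79 (SE 0.40, adjusted p = 0.000122), a step at which 0.792% of all probe sets rose. The other probe set of the gene gave means of 3.89, 6.79 and 7.72 on the first 3 days and a step of 2.89 (SE 0.41, adjusted p = 0.000117). The variation among all 10 embryonic stages was called as well (limma's moderated F test, adjusted p = 7.1e-13), and none of the daily steps down was. This time course was singled out after its values were seen. Over the first 4 days the leukocyte marker list went from 3.37 to 3.64, 4.01 and 4.25, and it then stayed between 4.17 and 4.47 until birth, while the erythroid list went from 9.33 to 9.09, 8.21 and 7.86; the part of either was not tested. Adult arrays varied widely, from 8.29 to 10.17 in young and 8.50 to 10.86 in old adults, and the mixed array was the highest in both.

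**Figure D3:**
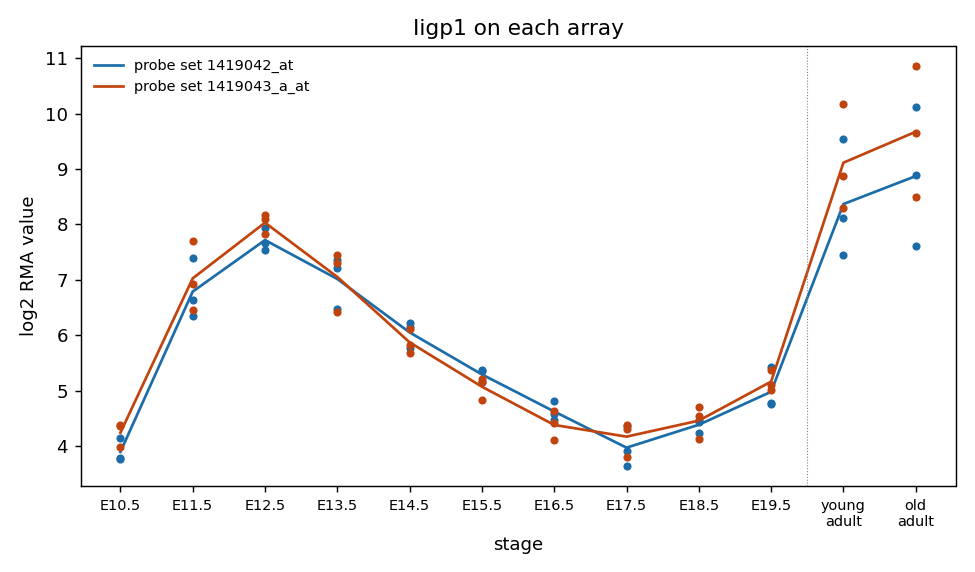
Log2 RMA signal of both Iigp1 probe sets (vertical axis) on each of the 36 arrays (points) with stage means (lines) by stage (horizontal axis); the dotted line marks birth. Both have their highest embryonic mean at E12.5, with means of 8.03 and 7.72, and are near 4 again at E17.5.

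Old and young adult hearts were compared to find changes with age. No member passed the strict rule (limma), which 0.00665% of all probe sets did. Of members above 5 at some stage, 20 had an unadjusted p below 0.05. These were 19 higher and 1 lower in old hearts, compared with 9.23% and 4.35% of probe sets. Without that limit 23 were higher and 5 lower, compared with 11.6% and 11.5% of probe sets. At an adjusted p below 0.05, 11 members were higher in old hearts, 16.4% of members compared with 3.25% of probe sets and 4% of genes, and none was lower, compared with 1.58% of probe sets; Irf2bp1 (-0.48, adjusted p = 0.0652) was called lower after quantile scaling (-0.59), after median centring (-0.62), without young adult replicate 1 (-0.66) and without old adult replicate 2 (-0.59). Gbp6 read 6.19, 6.84 and 6.55 in young and 8.17, 7.81 and 8.40 in old adults, a difference of 1.60 (SE 0.23, adjusted p = 0.000101). Irgm2 rose from 4.84, 5.09 and 5.37 to 6.49, 5.91 and 7.64, by 1.58 (SE 0.24, adjusted p = 0.000133). Both had no overlap between ages, but Irgm2 differed widely among the old arrays. Ifit1 rose from 5.92, 5.28 and 5.48 to 6.75, 7.32 and 7.06, by 1.48 (SE 0.17, adjusted p = 4.81e-06). The others were Oasl2 (1.19), Ifi47 (1.18), Ifit2 (1.04), Gbp2 (1.01), Isg20l2 (0.95), Usp18 (0.74), Irf8 (0.67) and Irf2bpl (0.41), of which Gbp2 overlapped between ages. Oasl2, Ifi47 and Usp18 met the limit of 5 in old hearts only, with means of 5.37, 5.87 and 5.35 there. With the hybridization control level as a covariate each of the 11 was still called higher, Ifit2 at 0.68. Irf1 (0.99), Irf7 (1.04) and Isg20 (1.05) were then called higher too, and no share of all probe sets is given for that model. Some of the 11 calls were lost under other settings. After median centring Usp18 (0.60) and Irf8 (0.53) were not called. Usp18 was not called either without young adult replicate 2 (0.50), old adult replicate 1 (0.73) or old adult replicate 2 (0.66), nor Ifi47 without old adult replicate 2 (0.71). Irf2bpl was not called after median centring (0.27) or quantile scaling (0.25), nor without young adult replicate 1 (0.39) or old adult replicate 2 (0.31), and its other probe sets gave -0.08 and -0.15 without rescaling. Several members with large embryonic deficits showed no called change with age, among them AW112010 (0.24), Ifi27l2a (0.08), Ifi35 (0.07), Gbp7 (-0.24) and Slfn5 (-0.44); the other probe set of Gbp7 (0.68) and both others of Slfn5 (0.41 and 0.14) lay on the opposite side of 0, and 1 other probe set of Ifi35 was called higher, by 0.83.

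The calls between ages rested on the spread shared by all stages. With only the 6 adult arrays in the model no member was called. At an unadjusted p below 0.05, among members above 5 at some stage, there were 13 higher and 1 lower, compared with 6.89% and 2.88% of probe sets. Without that limit there were 17 higher and 2 lower, compared with 8.01% and 6.07%. With the sex label as a block none was called either. At an unadjusted p below 0.05, 15 were then higher and 1 lower, compared with 6.93% and 2.89%. Without the limit 19 were higher and 2 lower, compared with 8.04% and 5.63%. The model of only the 6 arrays and the blocked model called 6 and 5 of all probe sets. The old arrays differed among themselves: the mixed array was the highest of the 3 in 43 members and the male array the lowest in 43, while 35.0% of all probe sets were highest on the mixed array. Endothelial markers were higher in old hearts in 3 of 10 (Pecam1 by 1.19, Vwf by 0.91 and Kdr by 0.81) and leukocyte markers in 2 of 13 (Ptprc by 2.00 and Cd14 by 1.19). Their list means ranged from 8.14 to 8.77 and from 5.92 to 6.56 over the old arrays, compared with 7.59 to 7.86 and 6.01 to 6.05 over the young. Of 7 cardiomyocyte markers 1 was higher. Fibroblast markers were lower in 2 of 4 and higher in none, with list means of 9.18 in young and 8.45 in old adults. Of all probe sets 3.25% were higher and 1.58% lower. The part of these marker lists in the age difference was not tested.

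**Figure D4:**
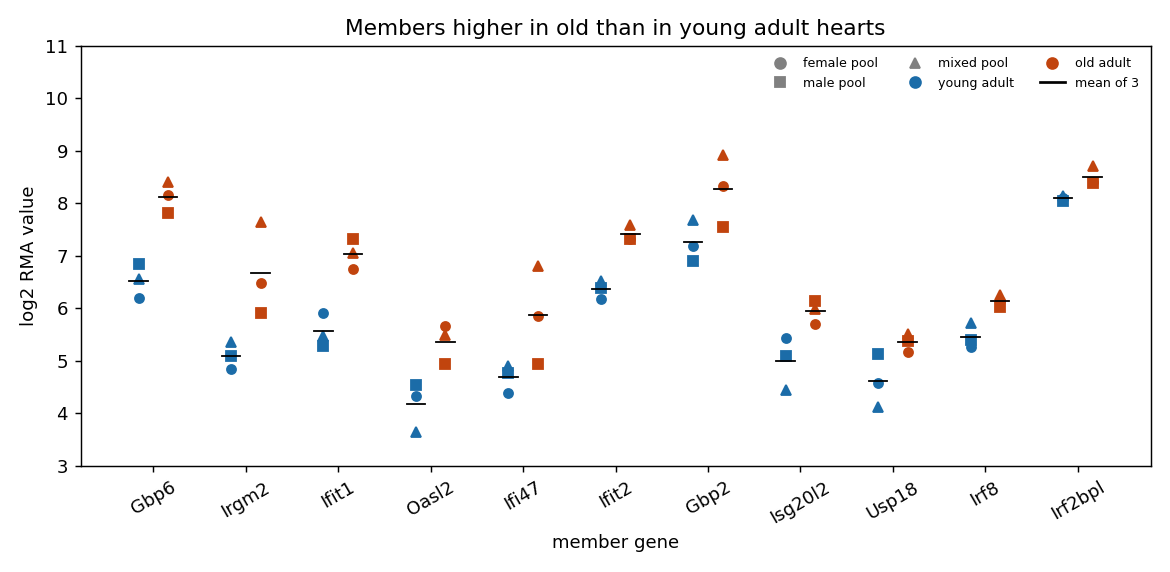
Log2 RMA signal (vertical axis) of the 11 members called higher in old than in young adult hearts (horizontal axis) on each array, with symbols for female, male and mixed samples and bars for the mean of 3. Old arrays lie above young arrays in every gene except Gbp2, whose lowest old array (7.55) lies below its highest young array (7.69). These genes were picked by this same comparison. Of the 44 members above 5 at some stage, 14 had all old arrays above all young ones, compared with 17.0% of such probe sets.

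No member differed between the sexes at an adjusted p below 0.05. Male and female arrays of the same stage, paired from E13.5 to old adult, gave no call among the members (limma), compared with 0.0377% of probe sets, and 2 members above 5 at some stage were higher and 4 lower in males at an unadjusted p below 0.05, compared with 0.847% and 3.69% of probe sets. Without that limit 3 were higher and 5 lower, compared with 3.54% and 4.26%. Whether the sex difference itself differed between embryos and adults was tested as an interaction. No member was called, compared with 0.404% of probe sets, and at an unadjusted p below 0.05, among members above 5 at some stage, 9 had a negative interaction and none a positive one, compared with 2.59% and 4.91% of probe sets. Without that limit 10 were negative and 3 positive, compared with 6.98% and 6.87%. Ifit3 was nearest, with males 1.07 and 0.96 log2 units below females in young and old adults (differences -1.07 and -0.96) and an adjusted p of 0.0546 for the interaction (limma, SE 0.22).

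The remaining genes of the pathway gave the frame. The 5 interferon genes that were measured stayed below 5 at every stage, so none could be called. Of 7 receptor and kinase genes, 3 were lower and 1 higher at E10.5 than in young adults: Ifngr1, a chain of the interferon gamma receptor, was lower by 1.51 (-1.51), and Ifnar1, of the interferon alpha receptor, higher by 0.36. The median difference of all probe sets above 5 at some stage was 0.41 in this comparison. Ifnar1 was not refitted after rescaling, so no direction is given for it. Of 11 sensors, 4 were lower, including Ifih1, a cytosolic detector of double-stranded RNA (-2.71), and 1 was higher, the kinase Tbk1 (1.27). Of 35 other effectors 21 were lower and none higher at E10.5, led by Psmb8 of the immunoproteasome (-3.98), Rtp4 (-3.86), Samd9l (-3.75), Trim30a (-3.69) and Rsad2, also called viperin (-3.65). At E19.5 the effectors again gave 21 lower and none higher, and in old compared with young adults 11 were higher, Nlrc5, an activator of MHC class I genes, by 1.83 and Psmb8 by 1.05 among them, and 1, Ddx60, was lower (-1.18). Of 6 inhibitors, 2 were higher and 1 lower at E10.5: Pias1 by 0.98, Ptpn2 by 0.87 and Samhd1 by -0.67. Above 5 at some stage, and so open to a call, were 7 receptor and kinase genes, 5 sensors, 23 other effectors and 5 inhibitors. Of all probe sets, 11.6% were lower and 22.3% higher at E10.5, and 7.56% lower and 13.4% higher at E19.5. In old compared with young adults 3.25% were higher and 1.58% lower.

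Markers of immune and vessel cells moved in the same direction as the families, and those of erythroid cells went the other way. Compared with young adults, 9 of 13 leukocyte markers were lower at E10.5 and 8 at E19.5, with C1qb (-4.80), Csf1r (-4.45), C1qa (-4.35) and Mrc1 (-4.28) the widest at E10.5, and none was higher. Endothelial markers were lower in 8 of 10 at E10.5 and in 6 at E19.5. Lymphocyte markers averaged 3.29 at E10.5 and 3.83 in young adults, and 2 of 11 were lower at E10.5. Only these 2 lymphocyte markers were above 5 at some stage, so the others could not be called. Of leukocyte markers 9 of 13, and of endothelial markers all 10, were above that limit. Adipocyte markers averaged between 2.68 and 3.06 in embryos and 4.93 in young adults, where single arrays ranged from 4.10 to 5.70. Of 6 erythroid markers, 4 were higher at E10.5 than in young adults and 0 lower, with list means of 9.33 and 4.05. Of 4 fibroblast markers, 1 was higher and 1 lower. Beside these counts, 11.6% of all probe sets were lower and 22.3% higher at E10.5, and 7.56% were lower at E19.5. How much of each member's rise came with changes in any of these cell types was not tested.

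**Figure D5:**
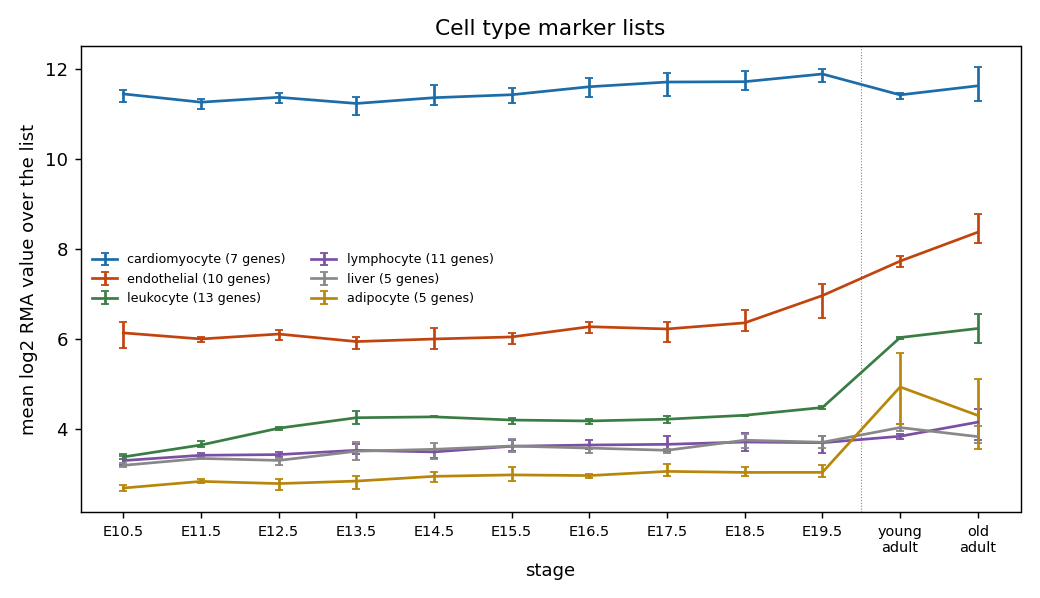
Mean log2 RMA signal over the cardiomyocyte, endothelial, leukocyte, lymphocyte, liver and adipocyte marker lists (vertical axis) by stage (horizontal axis). The erythroid and fibroblast lists are not drawn. Lines join stage means and bars run from the lowest to the highest of 3 arrays. Leukocyte markers went from 3.37 in E10.5 hearts to 6.03 in young adults and endothelial markers from 6.13 to 7.73, while cardiomyocyte markers stayed between 11.2 and 11.9.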

How the data were processed

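Total RNA of whole mouse hearts was hybridized to Affymetrix whole-genome mouse arrays. The deposited values are log2 signals made by the authors with the robust multi-array average (RMA); the submitters' processing notes also name Affymetrix Expression Console and Partek 6.6, and all 36 arrays are in 1 table. Probe sets were grouped by array symbol; 52 members were read by probe sets of their own, and 8, 4 and 3 by the a, s and x types, which can share signal with transcripts of the same gene or family. The members, gene lists and tests were chosen with earlier results of these data known. Stages were compared with limma 3.58.1 (R 4.3.3) in 1 model of 12 stage means, with Benjamini-Hochberg adjustment over all 45101 probe sets; the slope used the 30 embryonic arrays and the sex tests the male and female arrays with stage as a block. Arrays of a stage were treated as biological replicates, as the methods state; 3 per stage limits the precision. The fitting step was tested on simulated data. Named with values are members called by the strict rule and the member with the highest mean in each family; others were named to show where a family divided, and some members are not reported here by name. Alternatives were quantile scaling, median centring, filters, limits, the hybridization controls as a covariate, only the arrays compared, the sex label as a block, other probe sets, and leaving out each array. Promoters were matched by gene identifier. List genes were matched by symbol or, where that failed, by gene identifier; those that matched neither were not analysed here.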

Additional observations from a re-analysis of the deposited data

How the results depend on the processing

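Quantile scaling, median centring, either change of the expression filter, the member's most variable or only its unique probe set left the number of members called in each comparison within 1.5 times. In the deposited values the median over probe sets above 5 differed by 0.41 between E10.5 and young adult, by 0.05 after quantile scaling and by -0.12 after centring. For E19.5 against young adult, 10 members passed the strict rule, 19 with a log2 limit of 1, 5 with only the 6 arrays compared and 6 with the sex label as a replicate block. For E10.5 against E19.5, 6 passed it, 10 with a limit of 1 and 2 with only the 6 arrays; at an adjusted p below 0.05 the count of 29 went to 18 with the hybridization control level as a covariate. For old against young adult, the strict rule called 0, or 1 with a limit of 1, and at 0.05 the 11 went to 0 with only the 6 arrays and to 0 with the sex label as a replicate block. The 34 slopes called over embryonic days went to 21 with the hybridization covariate. With each array omitted in turn there were 22 to 25 and 40 to 42 members for E10.5 against young adult (strict rule and 0.05), 9 to 11 and 32 to 35 for E19.5 against young adult, 5 to 6 and 25 to 28 between E10.5 and E19.5, 0 to 0 and 9 to 15 for old against young adult, and 0 to 0 for male against female. The cause of these changes was not tested. Arrays of the same sex label at different stages came from different animals, so the label does not pair them.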
